A study of Mus musculus with 6 samples.

Results

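The genes that flank Ncam1 on mouse chromosome 9 were examined one by one in brains with and without a working Ncam1 gene. The list names 59 of the genes near Ncam1, with Ncam1 itself left out. It was drawn up with earlier results of these arrays known, and it does not hold every gene of the stretch. Every probe set annotated to exactly 1 of these genes was taken, which gave 62 of 12422 probe sets on the array and covered 43 of the 59 genes. In the gene order of RefSeq the list runs from 87 protein-coding genes before Ncam1 (Nectin1) to 29 after it (Rdx), with 45 listed genes before and 14 after, in a stretch of 117 protein-coding genes.

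The samples were total brains of 6 male mice, described as C57BL/6J, each on its own one-colour Affymetrix array. The 3 knockout animals carried a constitutive deletion of Ncam1, so the deletion was present in every cell type throughout life. The 3 wild-type animals were of the same genetic background. Each group held a pair of 2-month-old animals (replicates 1 and 2) and a 3-month-old one (replicate 3). The deletion is the allele of Cremer and colleagues, and the tissue was dissected after cervical dislocation. Neither the strain of the targeted cells nor the number of backcrosses is given in the sources used.

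NCAM, the neural cell adhesion molecule, is an immunoglobulin-family glycoprotein that links neurons and glia to each other and signals into neurites. A targeted allele is passed on together with the stretch of chromosome on either side of it, so neighbouring genes are usually looked at in a knockout for differences that travel with the allele or arise locally. Such a stretch and the lack of NCAM both follow genotype here and cannot be told apart. The neighbours of Ncam1 do unrelated work: they include the dopamine receptor Drd2, serotonin receptor subunits, enzymes and carriers of mitochondria, small heat shock proteins, an apolipoprotein cluster and the CD3 chains of the T cell receptor.

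Signals are in the scaled intensity units of the deposited file, and a difference is knockout minus wild type of log2(signal + 16), with its standard error (SE). Ncam1 was the check of the genotype labels. Its brightest probe set read 276, 209 and 327 in knockout replicates 1, 2 and 3 against 1346, 1448 and 1216 in wild-type replicates 1, 2 and 3 (difference -2.26 ± 0.15, adjusted p = 0.00076 in limma), so the groups lay far apart. Another probe set, of a kind that can also read related transcripts (called less specific below), read 101, 71.2 and 86.7 against 155, 141 and 145 (-0.68 ± 0.15), and the remaining one was dim, at 3.53 to 6.92 against 4.54 to 8.49. Where each lies relative to the deleted part is not stated, so a probe set outside it would check nothing.

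Several facts of the arrays bear on what follows. Knockout replicate 2 was low in cerebellar markers. Anterior pituitary markers summed highest in knockout replicate 1. Their summed signal in knockout replicates 2 and 3, 1318 and 1401, also lay above that of every wild-type brain. Of the 6 tested pituitary markers 6 were higher in knockout brains and 0 lower. The summed signal of 8 of 8 cerebellar markers ran from 2316 to 9470 in knockout brains and from 8760 to 9702 in wild-type brains, and that of 8 of 8 pituitary markers was 1318 to 15816 and 985 to 1152, with no marker at 0. The Gapdh control's 3' to 5' signal ratio, a sign of RNA quality, ran from 0.811 to 0.826 in knockout animals and from 0.768 to 0.798 in wild-type animals, without overlap, while that of beta-actin overlapped, at 1.14 to 1.22 and 1.08 to 1.20. The part of RNA quality, or of cerebellar or pituitary tissue, in the differences below was not tested. In whole brain, fewer cells of a type and less RNA per cell cannot be told apart.

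No flanking gene passed the test across the array, although several were separated between the genotypes in all 6 animals. Of the 62 probe sets, 39 probe sets of 29 genes were bright enough to be tested (a mean log2 value at or above 6.46, equal to a signal of 72.2). At an adjusted p under 0.05 in limma 0 of 39 were called, where 0.0268% of all 7453 tested probe sets were. At an unadjusted p under 0.05 there were 8 probe sets of 7 genes, 20.5% of those tested, beside 6.94% of all. Without knockout replicate 1 there were 6 of 38 (15.8%, beside 5.64% of all), and without knockout replicate 2 there were 7 of 38 (18.4%, beside 9.54%). Lower in knockout brains were 6 of the 8 (15.4%, beside 3.68% of all), from Pts, Sdhd, Cryab, Pafah1b2 and Phldb1, and higher were 2 (5.13%, beside 3.26%), from Fxyd2 and Rexo2. At an unadjusted p under 0.01 there were 5 (12.8%, beside 1.66%). The same 8 probe sets were those whose signals did not overlap between the groups, again 20.5%, beside 12.9% of all. By direction 6 of 39 lay wholly below the wild-type range, beside 6.8% of all, and 2 of 39 wholly above it, beside 6.08%. Because the list was drawn up with results known and 2 of the 8 belong to Pafah1b2, these shares are a description. One of the 8, Fxyd2, was tested only through its knockout values, which lie above the filter while its wild-type values lie below it. Leaving it out, a choice made after seeing the data, 7 of 38 (18.4%) had an unadjusted p under 0.05, 4 (10.5%) had one under 0.01 and 7 (18.4%) did not overlap. Higher at an unadjusted p under 0.05 was then 1 of 38 (2.63%, beside 3.26% of all), from Rexo2. Taking 1 probe set for each gene, 24.1% of 29 genes had an unadjusted p under 0.05, beside 6.94% of all 5665, and 6 of 28 (21.4%) without Fxyd2.

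**Figure D1:**
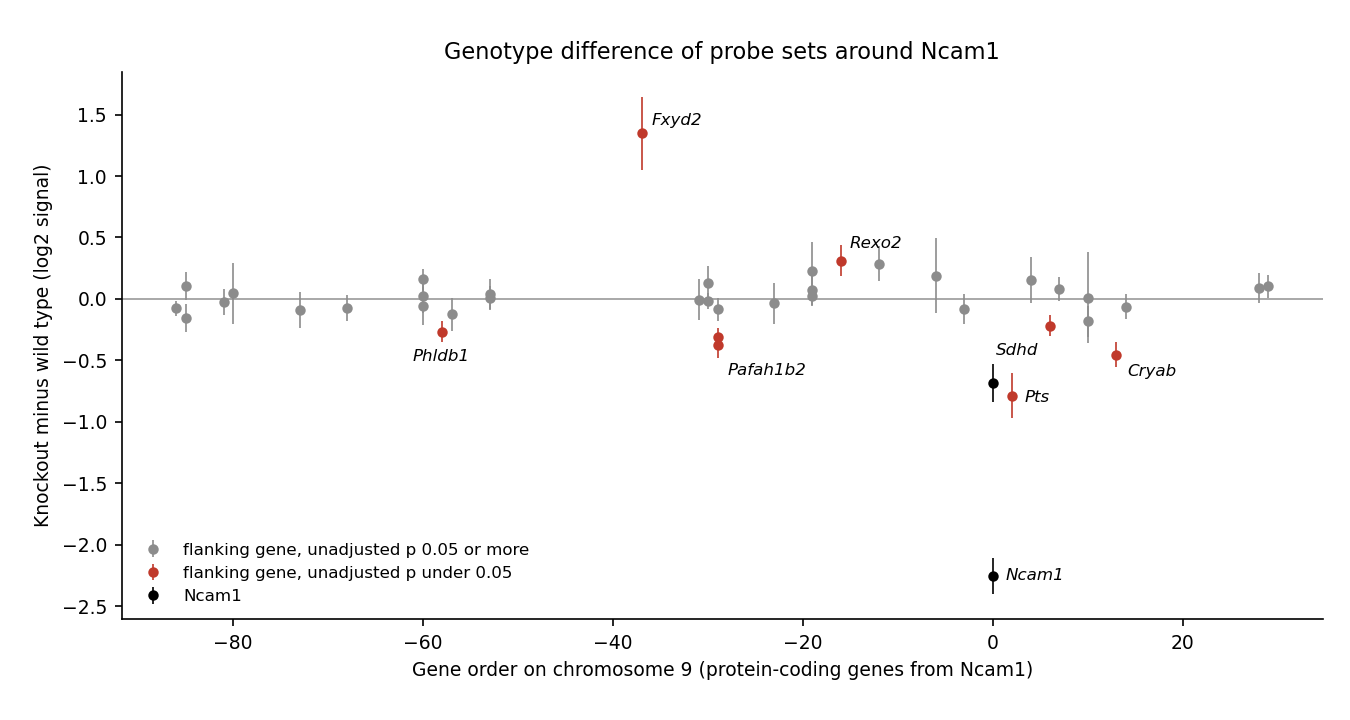
Difference between knockout and wild-type brains (log2 signal, points with SE bars, n = 3 animals per group) for each tested probe set, placed by the number of protein-coding genes between it and Ncam1 on chromosome 9. The 8 red probe sets have an unadjusted p under 0.05, the grey flanking probe sets lie between -0.18 and 0.29, and the black points are the 2 tested probe sets of Ncam1 itself.

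As a list the genes were centred near 0. The median difference was -0.01, with 19 probe sets higher and 20 lower, beside a median of 0.00 over all tested probe sets. The median absolute difference was 0.09, beside 0.10 over all, and 20 of the 39 lay within 0.1 of 0. The list median of each animal against the wild-type mean lay between -0.04 and 0.02. The median of the flanking genes thus lay near that of all probe sets, and the separated ones stood among neighbours whose signals overlapped.

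Pts encodes 6-pyruvoyltetrahydropterin synthase, which makes an intermediate of tetrahydrobiopterin, the cofactor needed to synthesise dopamine, noradrenaline and serotonin. It is the second protein-coding gene after Ncam1 and the nearest flanking gene with a tested probe set on that side. It read 102, 71.0 and 120 in knockout replicates 1, 2 and 3 and 199, 160 and 175 in wild-type replicates 1, 2 and 3. Every knockout animal lay below every wild-type animal, with the lowest value in knockout replicate 2. The difference was -0.79 ± 0.18 (1.73-fold lower, adjusted p = 0.429 in limma), and its exact permutation p (two-sided) was 0.1, the lowest possible with 3 animals against 3. Without knockout replicate 2 the difference was -0.61. The 250 bases before its start are shown because Pts had the most negative difference among the tested flanking genes. They lie at chr9:50528657-50528906 of GRCm38.p6 on the minus strand, from RefSeq, and capitals mark matches, on either strand, to GGGCGG (the GC box) or CCGGAA (the core bound by ETS factors).

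Pts: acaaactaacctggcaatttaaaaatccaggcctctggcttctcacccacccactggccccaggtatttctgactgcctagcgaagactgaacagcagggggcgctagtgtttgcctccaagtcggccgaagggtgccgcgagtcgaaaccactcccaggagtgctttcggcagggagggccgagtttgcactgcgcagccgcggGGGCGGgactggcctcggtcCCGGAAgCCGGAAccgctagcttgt

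The window holds 1 GC box and 2 CCGGAA matches, which do not overlap each other, and has no match to CCAAT or TATAAA. Of all 32851 RefSeq windows of this length 32.7% hold a GC box, 12% CCGGAA, 33.8% CCAAT and 12.4% TATAAA on either strand. A match is a description of the letters and says nothing about binding in these brains.

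Other tested genes of the pterin pathway differed by less than Pts. Of 14 listed genes, Pts included, 7 were tested, of which 2 (Pts and Qdpr) were lower and 0 higher at an unadjusted p under 0.05 (none passed after adjustment in limma), with a median difference of -0.05. Qdpr, which regenerates the cofactor, read 3318, 3485 and 3723 against 4299, 4095 and 3986 (-0.23 ± 0.06), again without overlap. Spr, the enzyme of the step after Pts, read 233, 285 and 303 against 233, 246 and 210 (0.23 ± 0.12), and Gch1, the enzyme of the step before it, was too dim to test at 15.0 to 36.2 and 27.4 to 42.8. The users of the cofactor and the next enzyme of monoamine synthesis, Th and Ddc, differed by -0.05 ± 0.17 and -0.09 ± 0.14.

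Sdhd and Timm8b are neighbours that start 51 bases apart and run in opposite directions, and the groups were separated for Sdhd alone of the pair; the contrast between the 2 genes was not tested. Sdhd encodes a membrane anchor of succinate dehydrogenase, which is complex II of the respiratory chain, and is the sixth gene after Ncam1. It read 1322, 1216 and 1413 in knockout replicates 1, 2 and 3 against 1501, 1646 and 1451 in wild-type replicates 1, 2 and 3, a difference of -0.22 ± 0.08 (adjusted p = 0.719 in limma). The groups did not overlap, but the gap between the highest knockout and the lowest wild-type animal was small. Leaving out knockout replicate 2 gave -0.16. Timm8b, a chaperone of protein import into mitochondria, read 765, 858 and 686 against 745, 729 and 697, and its groups overlapped (0.08 ± 0.10). The stretch between their starts is shown on each gene's own strand because both genes are transcribed away from it. It lies at chr9:50603850-50603900 of GRCm38.p6, from RefSeq, with a match to CCGGAA or its complement in capitals.

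Sdhd: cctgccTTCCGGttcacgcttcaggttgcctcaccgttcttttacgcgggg
Timm8b: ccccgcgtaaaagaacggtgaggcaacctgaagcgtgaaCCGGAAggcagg

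The 51 bases hold 1 CCGGAA match and no complete GC box, CCAAT or TATAAA. Of all RefSeq starts 4.69% hold CCGGAA, 16.4% a GC box, 8.76% CCAAT and 3.53% TATAAA in the 51 bases before them.

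Of 14 listed genes of complex II and of pyruvate dehydrogenase, Sdhd, Dlat and the dehydrogenase kinases included, 11 were tested and the median difference was 0.00, with none called after adjustment. Lower at an unadjusted p under 0.05 were 2, Sdhd itself and Sdhc, and 0 were higher. Sdhc, the partner of Sdhd and a gene of another chromosome, read 1567, 1500 and 1653 against 1829, 1726 and 1743 (-0.17 ± 0.07) without overlap. The catalytic subunits Sdha and Sdhb differed by 0.08 ± 0.10 and 0.06 ± 0.06. Dlat, the acetyltransferase of pyruvate dehydrogenase and the tenth gene after Ncam1, read 281, 277 and 236 against 330, 325 and 255 by its brighter probe set (-0.18 ± 0.13), with overlap, and its dimmer probe set differed by 0.01 ± 0.37. The list was thus mixed in direction.

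**Figure D2:**
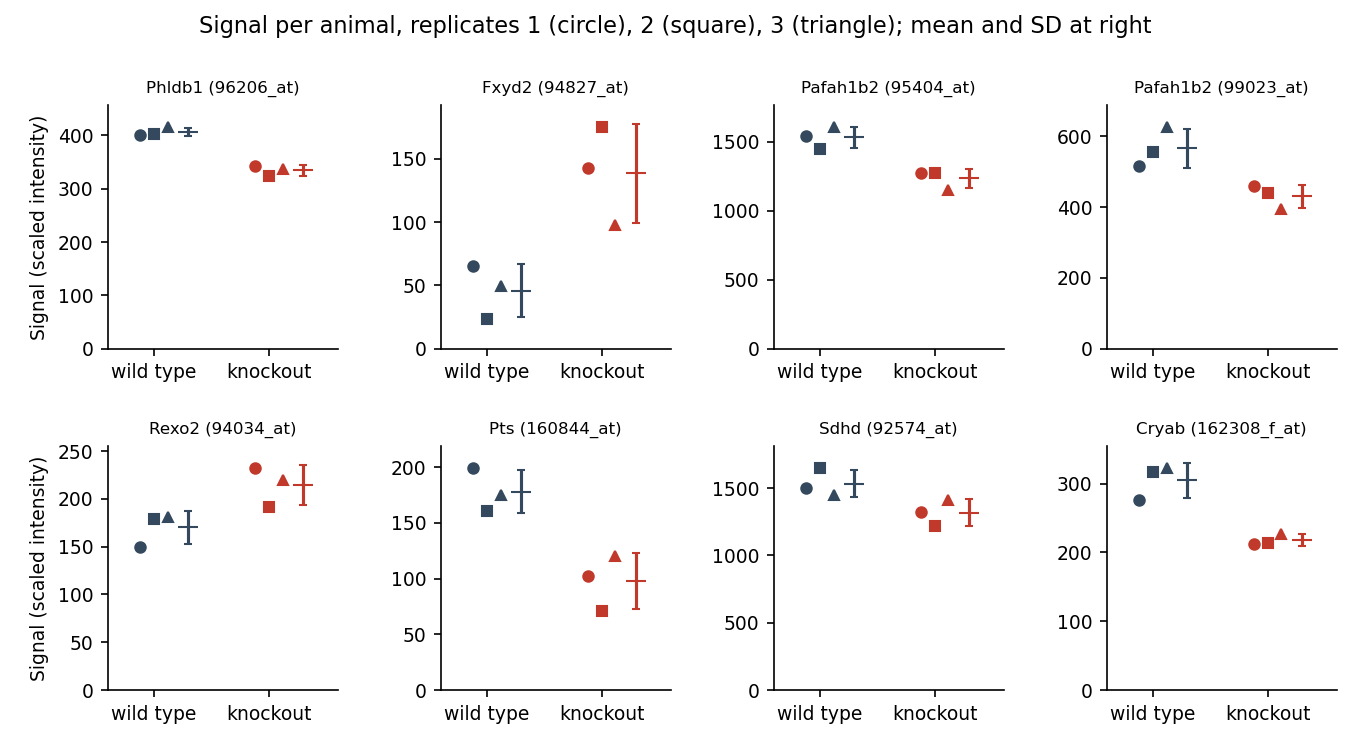
Signal of each animal for the 8 probe sets with an unadjusted p under 0.05, with axes from 0, replicates as circles (1), squares (2) and triangles (3), and the mean with its SD (n = 3) at the right of each group. In every panel the groups do not overlap; Fxyd2 and Rexo2 are higher in knockout brains and the others lower.

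Cryab and Hspb2, adjacent small heat shock genes at the thirteenth and the fourteenth place after Ncam1, were separated in the first case and overlapped in the second; their contrast was not tested. Cryab encodes alpha-B crystallin, a chaperone of oligodendrocytes, astrocytes and muscle. Its tested probe set, of a less specific kind, read 212, 214 and 227 in knockout replicates 1, 2 and 3 and 276, 317 and 322 in wild-type replicates 1, 2 and 3, with a gap between the groups (-0.45 ± 0.10, adjusted p = 0.416 in limma, exact permutation p = 0.1). The knockout animals were close to each other, with an SD of 8.13 against 25.6 in wild-type animals. Its other probe set was dim, at 15.8, 26.3 and 13.7 against 23.7, 20.6 and 19.2, and overlapped. Hspb2, known mainly from muscle, read 217, 248 and 237 against 257, 239 and 238 by a less specific probe set and overlapped (-0.06 ± 0.10).

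Beside Cryab, some markers of the cells that make it also read lower. The summed signal of 8 of 10 myelin and oligodendrocyte markers ran from 12298 to 13800 in knockout brains and from 13927 to 14915 in wild-type brains. The sums did not overlap, but the gap was small, and no marker was at 0. Mbp, the brightest of them, differed by -0.083 ± 0.045. Of 7 tested, 3 were lower at an unadjusted p under 0.05 in limma (Mag, Ugt8a and Mobp) and 0 higher. Over all tested probe sets 3.68% were lower and 3.26% higher at that limit. By sign 5 of the 7 were lower and 2 higher, Cldn11 (0.10 ± 0.22) and Mal (0.00 ± 0.12). Of the 3 astrocyte markers tested, 2 were lower at an unadjusted p under 0.05 in limma, with Aqp4 at -0.28 ± 0.10 and S100b at -0.41 ± 0.14. The other, Gfap, differed by 0.06 ± 0.15. The summed signal of the 3 overlapped, at 2061 to 2630 in knockout brains and 2534 to 3306 in wild-type brains. The part of these cells in the Cryab difference was not tested. Of 20 listed genes of the heat shock response 14 were tested, with a median of 0.04, with none called after adjustment; at an unadjusted p under 0.05, 2 were higher, and Cryab alone was lower. Those higher were Hspa8, a constitutive chaperone (0.21 ± 0.08), and its partner Dnaja1 (0.15 ± 0.06). Hspa8 also lies on chromosome 9, 103 genes before Ncam1 and outside the stretch of the list. Cryaa, the lens relative of Cryab, read 67.2, 72.1 and 47.9 against 79.6, 82.3 and 102, without overlap (-0.41 ± 0.19). Hspb8 differed by -0.04 ± 0.11.

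On the other side of Ncam1, Pafah1b2 lies 29 genes away and encodes a catalytic subunit of the enzyme that inactivates platelet-activating factor in the cytosol. Its brightest probe set read 1274, 1275 and 1150 in knockout replicates 1, 2 and 3 against 1537, 1447 and 1604 in wild-type replicates 1, 2 and 3 (-0.31 ± 0.08, adjusted p = 0.436 in limma, exact permutation p = 0.1). A further probe set read 459, 439 and 395 against 516, 555 and 626 (-0.38 ± 0.10). Both were lower in every knockout animal, with knockout replicate 3 lowest and wild-type replicate 3 highest. The remaining probe set read 729, 683 and 611 against 706, 688 and 753, overlapped, and differed by -0.09 ± 0.09, so the probe sets of this gene did not give 1 size. The sources used here do not say which part of the transcript each probe set reads.

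The named partners of Pafah1b2 overlapped between the genotypes. Of 12 listed genes of the hydrolase and of the lissencephaly and reelin pathway 9 were tested, 1 of them lower and 0 higher at an unadjusted p under 0.05 (Pafah1b2 itself) and none after adjustment in limma, with a median of 0.03. Pafah1b1, the regulatory subunit, read 2217, 2104 and 1985 against 2168, 2085 and 1910 (0.03 ± 0.07). The other catalytic subunit, Pafah1b3, differed by 0.06 ± 0.12, and Ndel1, which binds Pafah1b1 at microtubules, by -0.17 ± 0.09.

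**Figure D3:**
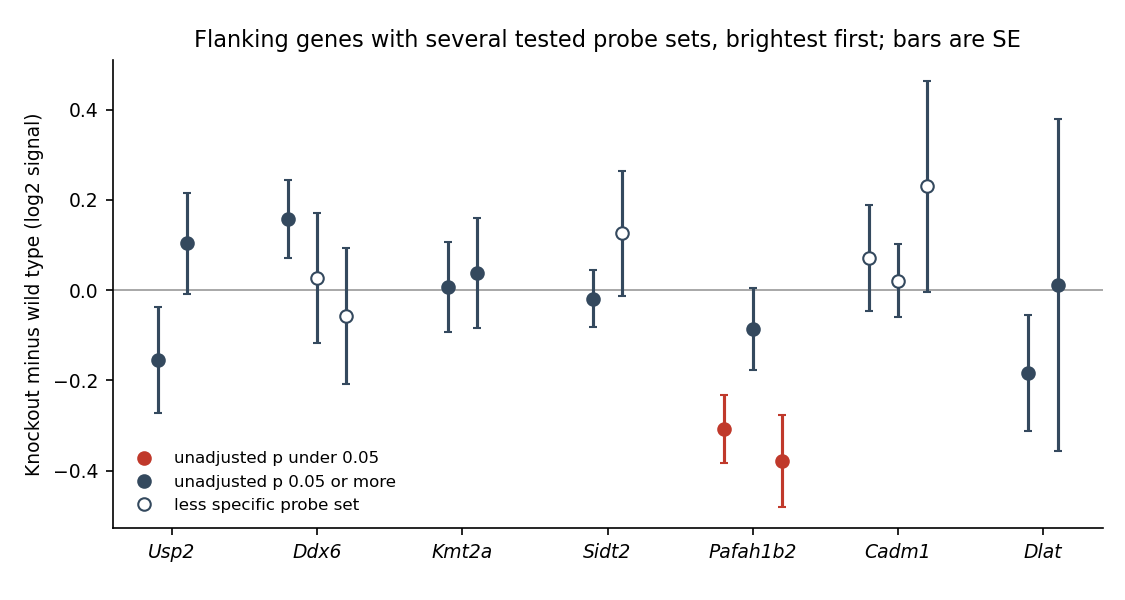
Differences between knockout and wild-type brains (log2 signal, points with SE bars, n = 3 animals per group) for the 7 flanking genes with 2 or more tested probe sets, ordered by position and, within a gene, from the brightest in wild type. Of the 3 Pafah1b2 probe sets 2 lie at -0.31 and -0.38 and 1 at -0.09, and open circles are less specific probe sets.

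Fxyd2, 37 genes before Ncam1, encodes the gamma subunit that tunes the sodium pump and is best known from kidney. It read 143, 175 and 97.5 in knockout replicates 1, 2 and 3 against 65.2, 23.2 and 49.4 in wild-type replicates 1, 2 and 3. The groups did not overlap, and animals of 1 genotype differed widely among themselves. The difference of 1.35 ± 0.30 (2.55-fold higher, adjusted p = 0.416 in limma, exact permutation p = 0.1) was 0.88 with a pseudocount of 64, 1.65 with a pseudocount of 1 and 1.05 without wild-type replicate 2, and all wild-type values lay below the filter limit of 72.2. It was tested only through its knockout values: without knockout replicate 1 or 2 it fell below the filter. A dim probe set that is kept for 1 group had to differ, so the counts above are also given without it.

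Differences of the tested beta subunits of the sodium pump and of the other tested relatives of Fxyd2 lay at or below 0.03. No catalytic alpha subunit of the pump was among the genes tested. Of 14 listed genes 7 were tested, with 1 higher at an unadjusted p under 0.05 (Fxyd2), 0 lower, none after adjustment in limma, and a median of -0.06. The brain relatives Fxyd1 and Fxyd7 differed by -0.01 ± 0.10 and -0.23 ± 0.25, and Atp1b2, a pump subunit of astrocytes, by -0.28 ± 0.13. For choroid plexus, a tissue rich in this pump, 4 of 6 markers were on the array, and their sum ran from 1635 to 2554 in knockout brains and from 2050 to 2427 in wild-type brains. Fxyd6, the family member beside Fxyd2, had no probe set here.

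**Figure D4:**
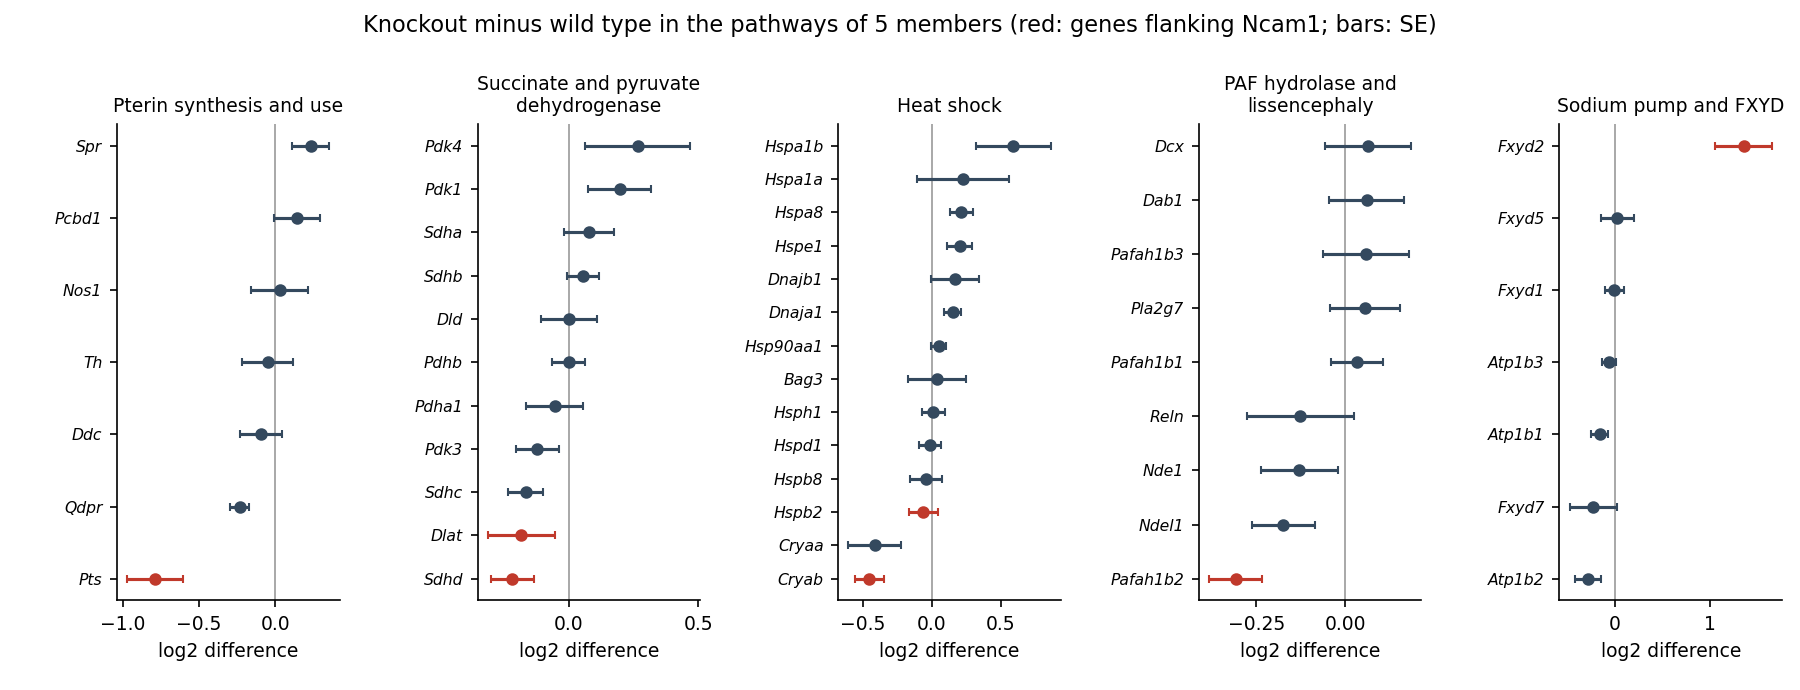
Differences between knockout and wild-type brains (log2 signal, SE bars, n = 3 animals per group; the 5 horizontal scales differ) of the tested genes in the pathways of Pts, Sdhd and Dlat, Cryab, Pafah1b2 and Fxyd2, with flanking genes of Ncam1 in red. Pts at -0.79, Sdhd at -0.22, Cryab at -0.45 and Pafah1b2 at -0.31 are the lowest of their lists, and Fxyd2 at 1.35 is the highest. The lists shown are those of members already separated in these data, so an outer place was favoured by that choice. Fxyd2 was tested only through its knockout values. At the other end, Hspa1b of the heat shock list lies at 0.59 and Pdk4 of the dehydrogenase list at 0.27, each farther from 0 than the member. Spr, Pafah1b1 and Fxyd1 lie at 0.23, 0.03 and -0.01.

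Rexo2 and Phldb1 completed the separated genes. Rexo2, an exonuclease that degrades very short RNA in mitochondria, lies 16 genes before Ncam1 and read 232, 191 and 220 in knockout against 150, 179 and 181 in wild-type replicates 1, 2 and 3 (0.31 ± 0.13, adjusted p = 0.719 in limma). Knockout replicate 2 was only just above the highest wild-type animal. Phldb1, 58 genes before Ncam1, encodes a protein that ties microtubules to the cell cortex. It read 344, 324 and 337 against 400, 404 and 416, with little spread in either group (-0.27 ± 0.09, adjusted p = 0.606 in limma). Its immediate measured neighbours Ddx6 and Arcn1 overlapped between the groups.

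The genes that lie closest to Ncam1 before it showed no separation. Drd2, the inhibitory dopamine receptor, is 3 genes away and read 202, 257 and 217 against 256, 225 and 235 (-0.08 ± 0.12). Knockout replicate 2 was above all wild-type animals and knockout replicates 1 and 3 below them. Of 16 listed genes of dopamine and striatal signalling 6 were tested, with a median of 0.09 and 0 at an unadjusted p under 0.05 in either direction; the lowest p values were those of the tachykinin Tac1 (0.18 ± 0.13) and of Maoa, which degrades monoamines (0.14 ± 0.11). Zw10, a kinetochore and Golgi tethering protein 6 genes away, read 125, 97.3 and 74.7 against 107, 116 and 44.1 (0.19 ± 0.31), lowest in the 3-month-old animal of each genotype. Htr3a, a subunit of the serotonin-gated channel, read 93.3, 103 and 25.6 against 63.5, 42.6 and 95.1 and was too dim to test. Of 15 listed genes, serotonin receptors and the serotonin transporter Slc6a4, 8 were tested, Slc6a4 among them. Their median was 0.01 with 0 at an unadjusted p under 0.05, and Htr1a (0.23 ± 0.20) and Htr5b (0.14 ± 0.14) had the lowest p values.

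Farther out on that side, Zbtb16, a zinc finger transcription factor 12 genes away, read 609, 724 and 953 against 608, 599 and 626 by its brighter, less specific probe set (0.29 ± 0.14). The wild-type animals were close together, knockout replicate 3 stood high, and knockout replicate 1 lay inside the wild-type range. Nnmt, which methylates nicotinamide, read 22.8, 19.2 and 23.9 against 42.5, 68.9 and 26.8 and was too dim for the main test. It was the 1 dim probe set of 23 whose groups did not overlap, beside 12% of all 12422 probe sets, dim and bright together. Cadm1, a synaptic adhesion molecule of the same superfamily as NCAM and 19 genes away, read 1744, 1741 and 1382 against 1678, 1621 and 1331 by its brightest probe set (0.07 ± 0.12), lowest in the 3-month-old animal of each genotype, and its other 2 probe sets differed by 0.02 ± 0.08 and 0.23 ± 0.23. All 3 are of a less specific kind.

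After Ncam1, genes that stand between or beyond the separated ones overlapped between genotypes. Il18, a cytokine of the interleukin-1 family and the fourth gene, read 133, 159 and 109 against 102, 105 and 150 (0.15 ± 0.19). Fdx1, the electron donor of mitochondrial steroid hydroxylases, read 318, 377 and 440 against 371, 336 and 350 (0.09 ± 0.12). Rdx, the membrane-actin linker radixin at the far end of the list, read 520, 522 and 486 against 493, 501 and 430 (0.10 ± 0.09).

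Listed adhesion and surface genes at the other end also overlapped. Thy1, a glycoprotein abundant on neurons, read 4077, 4535 and 4081 against 4504, 4525 and 4339 (-0.08 ± 0.06), and Mcam, an endothelial adhesion molecule, 220, 195 and 207 against 222, 218 and 196 (-0.03 ± 0.11). Of 19 listed adhesion molecules of the immunoglobulin superfamily 10 were tested, with a median of -0.02 and 0 at an unadjusted p under 0.05. Differences nearest 0 belonged to Kmt2a, a histone methyltransferase (0.01 ± 0.10 and 0.04 ± 0.12 by 2 probe sets), the smooth muscle protein Tagln (-0.01 ± 0.17), Dlat by its dimmer probe set, and Sidt2, a lysosomal membrane protein (-0.02 ± 0.06), whose less specific probe set differed by 0.13 ± 0.14. Cadm1 gave a value of the same size by 1 of its probe sets.

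Usp2, a deubiquitinase, differed by -0.16 ± 0.12 and 0.10 ± 0.11 by 2 probe sets, with opposite signs. The helicase Ddx6 gave 0.16 ± 0.09, 0.03 ± 0.14 and -0.06 ± 0.15. Cbl, a ubiquitin ligase, differed by 0.04 ± 0.25, the glucose-6-phosphate carrier Slc37a4 by -0.08 ± 0.10, the zinc finger protein Zpr1 by -0.04 ± 0.17 and the coat protein Arcn1 by -0.12 ± 0.13. Dpagt1, which starts N-glycan assembly, differed by -0.09 ± 0.15, beside a list of 15 genes of protein processing in the endoplasmic reticulum of which 12 were tested, with a median of 0.05 and none called after adjustment. By an unadjusted p under 0.05 the calnexin gene Canx was lower (-0.30 ± 0.11) and 4 were higher, namely the chaperone Hspa5 (0.50 ± 0.11), the disulfide isomerases Pdia4 (0.57 ± 0.15) and Pdia3 (0.54 ± 0.18), and Creld2 (0.47 ± 0.18). Over all tested probe sets 3.68% were lower and 3.26% higher at that limit.

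Dim probe sets left 14 listed genes without a test. The CD3 chains of the T cell receptor read 4.29 to 8.97 in knockout brains against 2.05 to 4.69 in wild-type brains for Cd3g, 12.9 to 25.4 and 1.82 to 19.8 for the brighter Cd3d probe set, and 19.2 to 25.8 and 17.7 to 25.9 for Cd3e. The apolipoproteins Apoa1 (12.4 to 13.3 against 11.6 to 17.0) and Apoa4 (19.9 to 26.2 against 22.9 to 55.5) also overlapped. Of the T cell receptor list 2 of 10 genes were tested (median -0.11), of the apolipoprotein list 4 of 12 (median -0.07), and 0 in either list had an unadjusted p under 0.05. The other untested genes were Hyou1, Upk2, Cxcr5, Mpzl2, Il10ra, Ppp2r1b and Btg4, besides Htr3a and Nnmt above. No detection calls were used, so a dim signal gives no bound on expression. No probe set stood for Ttc12, Usp28, Htr3b, Rbm7, Sik2, Layn, Dixdc1, Apoc3, Bud13, Bace1, Fxyd6, Ube4a, Treh, Vps11, Abcg4 or Nectin1. For the amyloid precursor pathway of Bace1, 5 of 10 listed genes were tested, with a median of -0.05 and 0 at an unadjusted p under 0.05.

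How many separated probe sets lay near Ncam1 varied with the window. At an unadjusted p under 0.05 there were 2 of 8 tested probe sets within 10 genes of Ncam1 and 6 of 31 beyond, 4 of 15 within 20 genes and 4 of 24 beyond, and 7 of 25 within 40 genes and 1 of 14 beyond. By side, 5 of 29 before Ncam1 (17.2%) and 3 of 10 after it (30%) did, beside 6.94% of all, and the 3 after it were all lower. Fxyd2, tested only through its knockout values, is 1 of the 7 within 40 genes and 1 of the 5 before Ncam1. It is also 1 of the 6 beyond 10 genes and 1 of the 4 beyond 20 genes. Pafah1b2 enters each of these same counts with 2 probe sets. The windows were chosen after the values were seen, and the difference between near and far or between the sides was not tested.

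The same stretch of chromosome holds genes that are not on the list. Between the outermost listed genes 11 further probe sets of 9 genes were tested, with 9 lower and 2 higher and a median of -0.14. At an unadjusted p under 0.05 in limma 1 of them was found (9.09%), and none at 0.01. It was Rnf26, named after its values were seen, a ubiquitin ligase of the endoplasmic reticulum, which read 428, 491 and 394 against 503, 607 and 497 (-0.28 ± 0.12) without overlap. On the rest of chromosome 9, 30 of 313 tested probe sets (9.58%) had an unadjusted p under 0.05, 7 (2.24%) had one under 0.01, and 46 (14.7%) did not overlap.

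**Figure D5:**
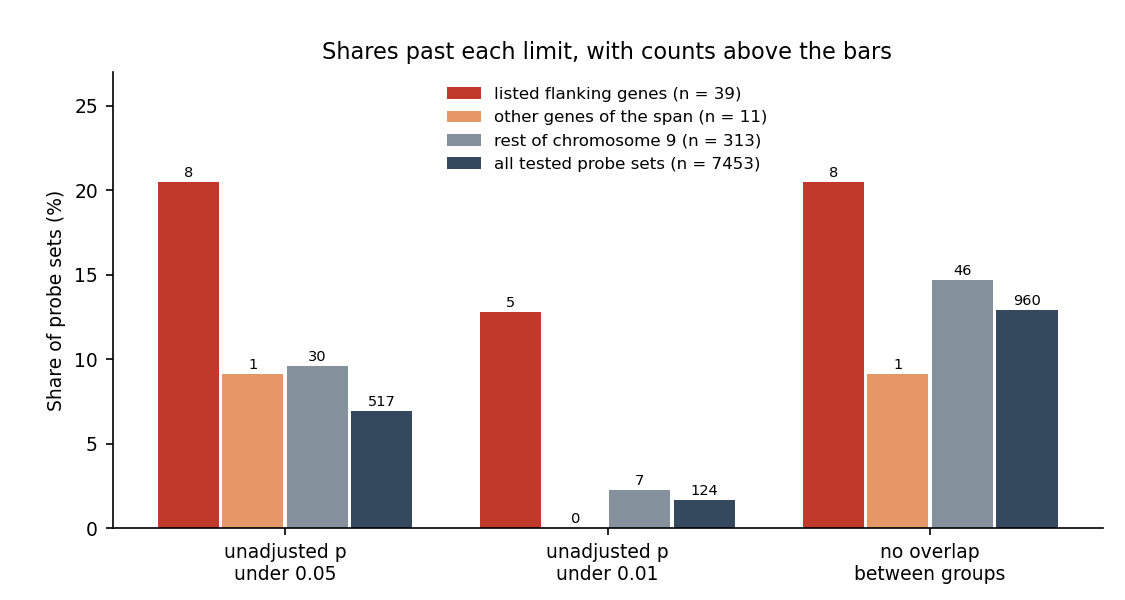
Share of tested probe sets (percent, bars from 0, counts above) past each of 3 limits, for the listed flanking genes, the other genes of the same span, the rest of chromosome 9 and all probe sets. At an unadjusted p under 0.05 the shares are 20.5%, 9.09%, 9.58% and 6.94%; the first rests on 8 probe sets, Fxyd2 among them, and the second on 1.

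Age divided the animals in the same way in both genotypes, with 1 older animal in each. A change of the genotype difference with age therefore cannot be told apart from that single animal, and only effect sizes are given. The knockout brains low in cerebellar and highest in pituitary markers, replicates 2 and 1, were both 2 months old. For the separated probe sets, the genotype difference at 3 months less that at 2 months ran from -0.83 (Fxyd2) to 0.46 (Pts). It was -0.84 for Il18, -0.50 for Arcn1 and 0.46 for Zbtb16, none of them among the separated genes.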

How the data were processed

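Per the labels, RNA of 6 brains was measured on Affymetrix arrays, 1 for each animal. The deposited values are linear intensity values per probe set, made by the authors with GCOS 1.4, per the submitters' processing notes; its settings are not stated. The trimmed mean was 300.2 on every array, so a change in total RNA would be hidden. After 66 control entries were removed, 12422 probe sets remained, 10833 with 1 gene symbol in the platform annotation. Gene order came from a RefSeq table of GRCm38.p6, in which 10817 matched by Entrez identifier; upstream sequence was held for 37 of the 59 genes.

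Values were transformed as log2(signal + 16), which understates folds of dim genes, and probe sets with a mean at or above the 40th percentile were kept (7453). The genotype comparison used limma 3.58.1 under R 4.3.3 (intensity trend, no covariates, two-sided), with Benjamini-Hochberg adjustment over all kept probe sets and a threshold of 0.05. Pathway and cell type lists used each gene's brightest probe set, and no set test was run. Their counts at an unadjusted p under 0.05 in limma stand beside 3.68% lower and 3.26% higher of all tested probe sets. The median SE was 0.12, limited by the number of arrays. The script was tested on simulated data. Figures were drawn with matplotlib 3.10.9.

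Members, lists and the naming rule were chosen with earlier results of these data known. The rule names the genes Fxyd2, Pts, Cryab and Pafah1b2, members at an unadjusted p under 0.05, the 6 nearest measured members on each side, families in the list, the 5 members nearest 0 and pathway partners; the remaining members were named to account for all. Less specific probe sets are those with a letter before the _at ending. Alternatives left out single arrays or the older animals, blocked on replicate number, added age, changed the scaling (quantile, median), the pseudocount (1, 64), the filter (none, 60th percentile) or the variance model (no trend, array weights), or restricted the probe sets to 1 per gene or to specific ones.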

Additional observations from a re-analysis of the deposited data

How the results depend on the processing

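No flanking gene was called at an adjusted p under 0.05 in limma under any of 19 alternatives (lowest adjusted p 0.209), and none of the 8 separated probe sets changed sign. Of these, 6 kept an unadjusted p under 0.05 in every alternative that tested them; Rexo2 (12 of 18) and Sdhd (14 of 19) did not, and both lost it with single arrays left out, knockout replicate 1 and wild-type replicates 1 and 2 among them. The count at an unadjusted p under 0.05 was 5 of 28 with the 60th percentile filter (17.9%, beside 7.49% of all) and 6 to 9 with 1 array left out (15.4% to 23.7%, beside 4.7% to 9.54%). Without Fxyd2, left out after seeing the data, it was 7. The count with no overlap was 19 in 2-month-old animals alone (48.7%, beside 36.5% of all), 5 with the 60th percentile filter (17.9%, beside 13.7%), and 9 to 14 with 1 array left out, where fewer animals overlap less: 13 without knockout replicate 2 (34.2%, beside 27.9%) and 14 without knockout replicate 3 (35.9%, beside 25.6%). With no filter the share with no overlap was 14.5%, beside 12% of all, and that at an unadjusted p under 0.05 was 14.5%, beside 6.27%. The list median was 0.015 with no filter, -0.044 with the 60th percentile filter, -0.026 with 1 probe set per gene and -0.034 to 0.008 with 1 array left out. Of the unlisted genes in the span, 0 had an unadjusted p under 0.05 in 2-month-old animals alone, with median centring and with no trend, 2 with array weights, and 0 to 3 with 1 array left out (3 without knockout replicate 2, 0 without knockout replicate 3 or wild-type replicate 2). The deviations of same-numbered animals correlated at 0.015, 0.147 and 0.201, and those of differently numbered animals at -0.221 to 0.081. These values do not settle whether the numbers pair the animals, and the main comparison did not pair them. With the replicate block 8 of 39 probe sets (20.5%) had an unadjusted p under 0.05 in limma, beside 8.51% of all, and 0 were called. The cause of these shifts was not tested.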
